A study of Mus musculus with 6 samples.

Results

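The miR-25/92 and miR-19 seed families were examined in small extracellular vesicles (sEVs) released by cultured mouse islets. Members were taken by name, as the 3p arms of miR-25, miR-92a, miR-92b, miR-363, miR-19a and miR-19b, without use of their measured levels. Of these 6 names, 5 matched an entry among the 718 entries of the table, namely mmu-miR-25-3p, mmu-miR-92a-3p, mmu-miR-92b-3p and mmu-miR-363-3p of the miR-25/92 family and mmu-miR-19b-3p of the miR-19 family. The remaining name, mmu-miR-19a-3p, was not analysed here.

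The islets came from wild-type C57/B6J mice given a normal chow diet (NCD) or a high-fat diet (HFD). They were kept in serum-free medium for 48 hours, after which sEVs were pelleted by ultracentrifugation and 5 ng of their RNA went into each small RNA library. The study calls the vesicles of NCD islets normal islet-derived sEVs (nid-sEVs) and those of HFD islets adaptive islet-derived sEVs (aid-sEVs), and there were 3 libraries of each. The study chose 9 weeks of HFD to stand for compensation in its later experiments and describes the sequenced sEVs as from compensated HFD mice. Its sequencing methods do not restate the diet length. The feeding course began at 8 weeks of age and ran up to 12 weeks. The age at which these islets were taken, the sex of the mice and the number behind a library are not given in the sources used here. Test results therefore measure the spread between libraries, which may be technical. Because a pellet holds vesicles of every cell in the culture, a difference in which cells released them and a difference in what each cell loaded cannot be told apart.

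A miRNA recognizes its targets mainly through its seed, bases 2 to 8 from the 5′ end, so miRNAs with the same seed are expected to share many targets. The miR-25/92 and miR-19 families have different seeds but come largely from the same polycistronic transcripts. Mir17hg, the host of the miR-17/92 cluster, encodes both miR-92a and miR-19 and has been studied as a driver of cell proliferation, in β cells among other cells. A related cluster on the X chromosome carries further copies of miR-92a and miR-19b together with miR-363. A smaller cluster inside Mcm7, which encodes a subunit of the replicative helicase, carries miR-25 next to miR-93 and miR-106b. The miR-92b hairpin stands alone.

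The mature sequences show how the families differ and how close their members are to each other. They are given from RefSeq on GRCm38.p6, 5′ to 3′, with the seed in capitals. All 6 names of the rule were found there.

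mmu-miR-25-3p: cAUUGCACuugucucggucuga
mmu-miR-92a-3p: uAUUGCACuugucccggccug
mmu-miR-92b-3p: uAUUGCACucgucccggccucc
mmu-miR-363-3p: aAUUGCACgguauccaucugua
mmu-miR-19a-3p: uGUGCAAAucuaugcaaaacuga
mmu-miR-19b-3p: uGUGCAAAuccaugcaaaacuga

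The first 4 share the seed AUUGCAC and the last 2 the seed GUGCAAA. Outside the seed, miR-25-3p and miR-92a-3p differ at 3 of 21 aligned positions, counted from 1 at the 5′ end (C1U, U14C and U18C). The pair miR-92a-3p and miR-92b-3p differ at 2 of 21 (U10C and G21C), so a read cut short at its 3′ end separates them by a single base. The miR-363-3p sequence matches miR-25-3p at 9 of 22 positions and keeps little beyond the seed. The pair miR-19a-3p and miR-19b-3p differ at a single position (U11C). How reads between such near-identical miRNAs were assigned is not given in the sources used here, and the values of miR-92a, miR-92b and miR-19b are uncertain to that extent. GC content of the 5 listed members ran from 39.1% in miR-19b-3p to 63.6% in miR-92b-3p, against a median of 47.8% over the 424 named entries with a RefSeq sequence. Over those entries, the seed AUUGCAC belonged to 5 entries, the 4 members and miR-32-5p, and the seed GUGCAAA to miR-19b-3p.

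On GRCm38, the build named in the submitters' processing notes, Mir25 lies on the minus strand of chromosome 5 from 138165321 to 138165404. It sits within the protein-coding gene Mcm7 on the same strand, and 1 of the 3 Mcm7 transcripts that span it has an exon there, the others having an intron. Mature miR-92a-3p comes from 2 hairpins, Mir92-1 on chromosome 14 from 115044427 to 115044506 and Mir92-2 on chromosome X from 52741838 to 52741928. Mature miR-19b-3p likewise comes from 2, Mir19b-1 on chromosome 14 from 115044305 to 115044391 and Mir19b-2 on chromosome X from 52741983 to 52742066. The chromosome 14 hairpins are exonic in the long noncoding RNA Mir17hg. Mir363 lies on chromosome X from 52741693 to 52741767 and Mir92b on chromosome 3 from 89227116 to 89227198, neither within another annotated gene of GENCODE M21.

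Levels are in RPM, reads scaled to a library of 1000000 reads. Each value was a whole multiple of the value of 1 read, and library totals recovered in this way ran from 50534 to 129152 reads in nid-sEVs and from 122266 to 519315 reads in aid-sEVs. A level of 3 reads, taken as the least the depth can show, was 23.2 to 59.4 RPM in nid-sEVs and 5.78 to 24.5 RPM in aid-sEVs. NCD replicate 1 stood apart, since entries with no miRBase name took 33.5% of its reads and at most 9.46% of the reads of any other library. Intervals below are 95% Wilson intervals, which with the 3-read floor cover counting error only.

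In the miR-25/92 family, miR-25-3p was the most abundant member in each of the 6 libraries, and its group mean was higher in aid-sEVs, with overlapping groups. It had 3964, 1112 and 534 RPM in NCD replicates 1, 2 and 3, from 512, 73 and 27 reads. In HFD replicates 1, 2 and 3 it had 3807, 5706 and 5177 RPM, from 1977, 2010 and 633 reads. The 3 aid-sEV libraries lay close together and well above NCD replicates 2 and 3, while NCD replicate 1 lay above HFD replicate 1. The 95% intervals of that last pair overlapped, at 3636 to 4322 and 3643 to 3978 RPM. The means were 1870 ± 1837 RPM in nid-sEVs and 4897 ± 980.2 RPM in aid-sEVs (SD, n = 3 each), which placed miR-25-3p at rank 62 and rank 36 of all entries.

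**Figure D1:**
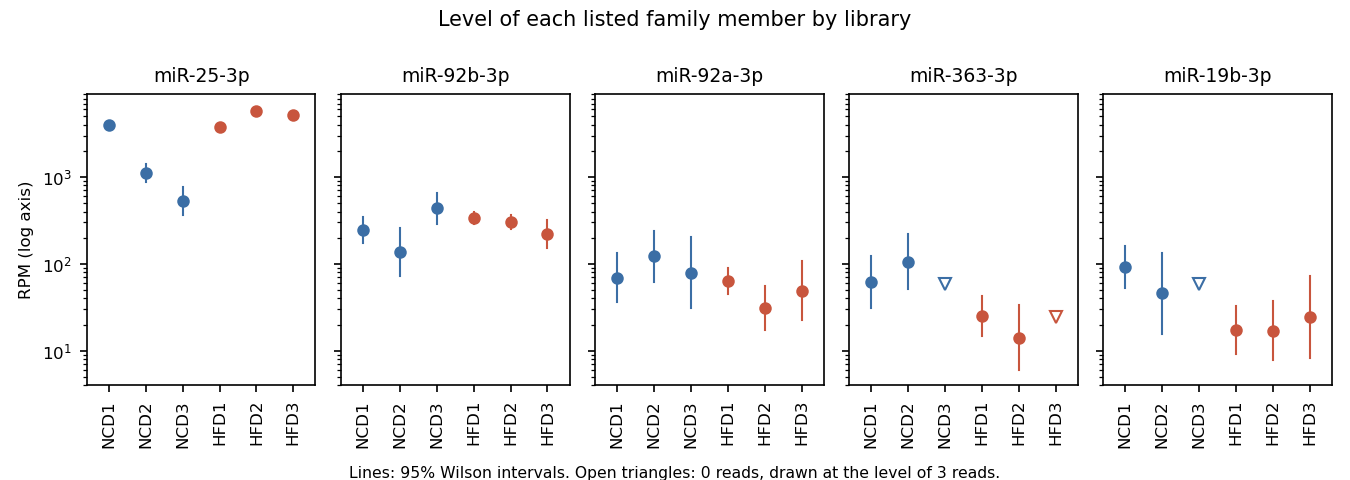
RPM (log axis) of the 5 listed members in each library, NCD in blue and HFD in red, with lines for 95% Wilson intervals and open triangles for 0 reads drawn at the level of 3 reads. miR-25-3p sits between 3807 and 5706 RPM in the HFD libraries and spreads from 534 to 3964 RPM in the NCD libraries, and the other members reach at most 435 RPM.

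The log2 fold change of miR-25-3p, from limma on log2(RPM + 1), was 1.86 with a 95% interval of 0.037 to 3.68 (SE 0.75). Its unadjusted p was 0.047 and its Benjamini-Hochberg adjusted p over all 718 entries was 0.17 by limma, so it was not called. Calls required a log2 fold change beyond 1 in size together with an adjusted p below 0.05. Such a fold change has to be read against the table as a whole, where the median was 1.11 over all entries and -0.21 over the 219 entries with reads in every library. Scaling by TMM factors moved the latter median to 0.29, and miR-25-3p lay 2.07 above it under either scaling. A factor per library shifts all entries almost alike, so this match was set in advance. With only entries that have a miRBase name, rescaled, miR-25-3p lay 1.80 above the median of the named ones among those 219 entries. Both the scale and the reference set differ there. Without NCD replicate 1, which held the highest nid-sEV level and the large unnamed share, the log2 fold change was 2.65 and the adjusted p by limma was 0.020. Leaving out the highest nid-sEV level raises the difference by construction. With any other library left out, the log2 fold change was 1.20 to 2.03 and the adjusted p by limma 0.26 to 0.40. When only entries with a miRBase name were kept and rescaled, they were 1.68 and 0.21. With edgeR's quasi-likelihood test on the recovered reads after its filter on low counts, the log2 fold change was 1.19 and the adjusted p 0.28. Above the median of the entries with reads in every library, miR-25-3p lay 1.74 with edgeR without that filter and 1.76 with DESeq2.

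The second most abundant member, miR-92b-3p, had near-equal means in the 2 groups. It had 248, 137 and 435 RPM in NCD replicates 1, 2 and 3 and 337, 304 and 221 RPM in HFD replicates 1, 2 and 3. The aid-sEV values all fell inside the nid-sEV range. The means were 273 ± 151 and 287 ± 59.8 RPM (SD, n = 3 each), with a log2 fold change of 0.20 and a 95% interval of -1.26 to 1.66 (adjusted p = 0.86 by limma). The interval leaves room for a change of more than 2-fold in either direction. In NCD replicate 3, miR-92b-3p with 22 reads came close to miR-25-3p with 27, whereas in the other libraries miR-25-3p exceeded it by a ratio of 8.11 to 23.4.

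By contrast, miR-92a-3p was lower in each aid-sEV library than in each nid-sEV library. Its levels were 69.7, 121.8 and 79.2 RPM in NCD replicates 1, 2 and 3 and 63.5, 31.2 and 49.1 RPM in HFD replicates 1, 2 and 3. The groups did not overlap, but the nearest libraries, NCD replicate 1 with 9 reads and HFD replicate 1 with 33 reads, had 95% intervals of 36.7 to 132 and 45.3 to 89.2 RPM. Over all entries, 7.52% lay lower in every aid-sEV library in the same way and 24.2% lay higher. The means were 90.2 ± 27.8 and 47.9 ± 16.2 RPM (SD, n = 3 each), and the log2 fold change was -0.91 with a 95% interval of -2.49 to 0.66 (adjusted p = 0.38 by limma). Over the 17 alternatives that tested it, the log2 fold change ran from -2.65 on thinned reads to -0.35 with edgeR without a filter, and it was -0.42 with TMM scaling, with adjusted p-values from 0.23 to 0.82.

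The X-linked member miR-363-3p was near the limit of detection. Its 8, 7 and 0 reads in NCD replicates 1, 2 and 3 corresponded to 61.9, 107 and 0 RPM. Its 13, 5 and 0 reads in HFD replicates 1, 2 and 3 corresponded to 25.0, 14.2 and 0 RPM, so each group had a library without it. With 0 reads, the floor in NCD replicate 3 is 59.4 RPM, above both aid-sEV libraries in which it was found. Its log2 fold change of -1.37 had a 95% interval of -6.71 to 3.97 (adjusted p = 0.73 by limma), and no difference was detectable at this depth.

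The miR-19 family was represented by miR-19b-3p, a product of the chromosome 14 and X clusters. It had 12, 3 and 0 reads in NCD replicates 1, 2 and 3, or 92.9, 45.7 and 0 RPM. In HFD replicates 1, 2 and 3 it had 9, 6 and 3 reads, or 17.3, 17.03 and 24.5 RPM. NCD replicates 1 and 2 lay above all aid-sEV libraries and NCD replicate 3 lay at 0, where the floor of 59.4 RPM exceeds each aid-sEV value. The means were 46.2 ± 46.5 and 19.6 ± 4.25 RPM (SD, n = 3 each). The log2 fold change was 0.32 with a 95% interval of -4.02 to 4.65 (adjusted p = 0.92 by limma), opposite in sign to the ratio of the means of 0.42, and it became -1.70 without NCD replicate 3. A direction for miR-19b-3p was therefore not set by these reads.

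In all, 0 of the 5 members were called by limma, where 15.6% of the 718 entries were called higher and 1.81% lower in aid-sEVs. At an unadjusted p under 0.05, 1 member, miR-25-3p, was higher, against 22.0% of all entries. By edgeR's quasi-likelihood test, 0 of the 2 members that passed its filter and 0 of 5 without a filter were called, and DESeq2 called 0 of 5. Over all entries tested, edgeR called 69 of 245 after its filter and 63 of 718 without it, and DESeq2 called 115 of 718. With so few members, counts of 0 set them apart from the table in none of these tests. Of the calls over all entries, 89.6% were higher by limma and 56.5% by DESeq2. The median over the members was a log2 fold change of 0.20. The members hold few reads apart from miR-25-3p, and 3 of the 5 were found in every library.

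**Figure D2:**
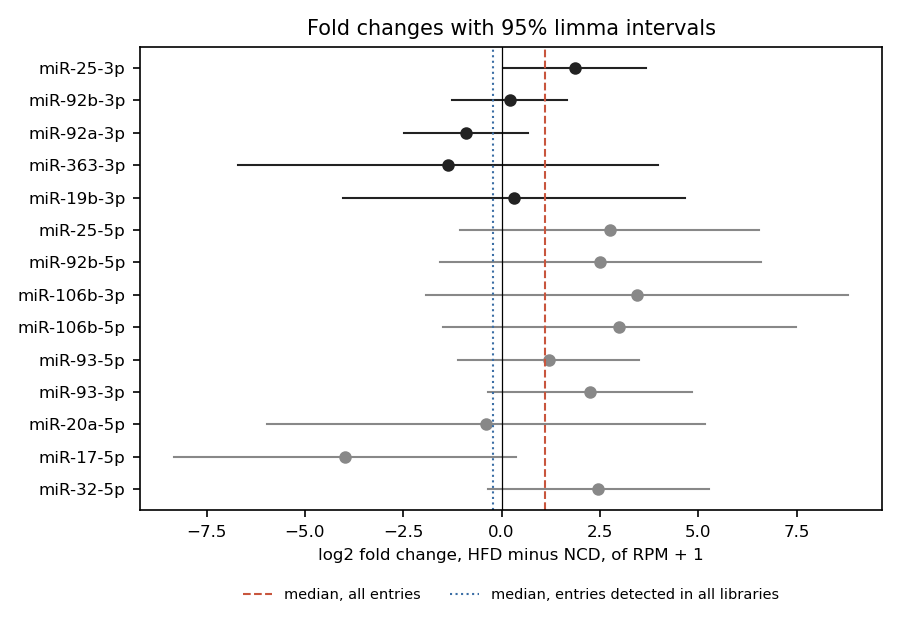
Log2 fold changes of log2(RPM + 1), HFD minus NCD, with 95% limma intervals, for the 5 listed members (black) and for the other arms, cluster partners and miR-32-5p (grey), beside the median of all entries (dashed) and of the entries found in every library (dotted). Among all 14, the interval of miR-25-3p, from 0.037 to 3.68, is the only one that lies above 0.

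The seed families were then compared as sums. The 4 miR-25/92 members summed to 4344, 1477 and 1049 RPM in NCD replicates 1, 2 and 3 and to 4233, 6055 and 5447 RPM in HFD replicates 1, 2 and 3. The miR-19 level was that of miR-19b-3p alone. The miR-25/92 sum exceeded the miR-19 level by a ratio of 46.8 in NCD replicate 1, 32.3 in NCD replicate 2, 244 in HFD replicate 1, 356 in HFD replicate 2 and 222 in HFD replicate 3. In NCD replicate 3, where miR-19b-3p had 0 reads, the sum was at least 17.7-fold higher than the 3-read floor. The 3 aid-sEV ratios were thus all above those of NCD replicates 1 and 2, and NCD replicate 3 could not be placed among them. On the log2 scale with 1 RPM added, the mean ratio of the nid-sEV libraries was 6.85 ± 2.77 and that of the aid-sEV libraries 7.99 ± 0.35 (SD, n = 3 each), a difference of 1.14 that is smaller than the nid-sEV spread. The added 1 sets the value of NCD replicate 3, and without that library the difference was 2.74. Because miR-19a-3p is left out, the ratios concern the entries used here.

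The make-up of the miR-25/92 family varied over a wider range in nid-sEVs. In HFD replicates 1, 2 and 3, miR-25-3p took 89.9%, 94.2% and 95.05% of the family's reads. In NCD replicates 1, 2 and 3 it took 91.3%, 75.3% and 50.9%, with 95% Wilson intervals of 88.6% to 93.3%, 65.8% to 82.8% and 37.9% to 63.9%. NCD replicate 1 therefore resembled the aid-sEV libraries in this share, and the intervals of the other nid-sEV libraries lay below every aid-sEV value. The miR-92b-3p share was 41.5% in NCD replicate 3, from 22 of 53 reads, and between 4.05% and 9.28% elsewhere. The miR-92a-3p share was 1.60%, 8.25% and 7.55% in NCD replicates 1, 2 and 3 and 1.5%, 0.52% and 0.90% in HFD replicates 1, 2 and 3.

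**Figure D3:**
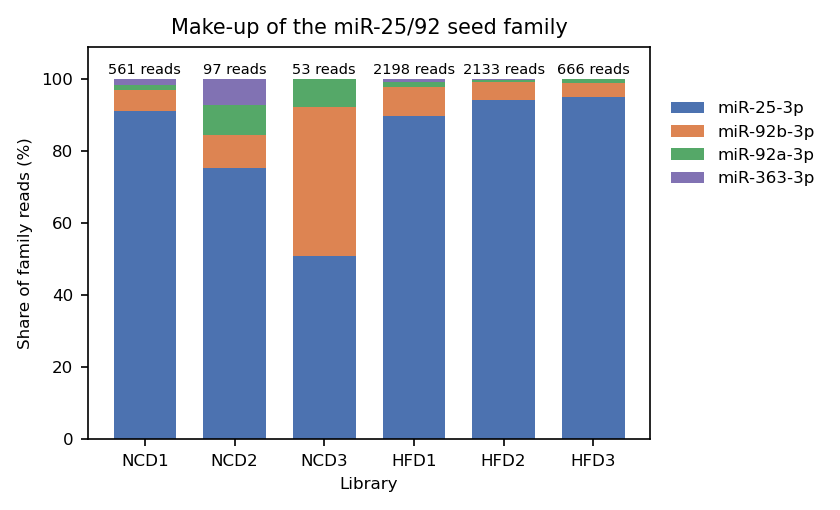
Share of the reads of the 4 listed miR-25/92 members held by each member, by library, with the number of family reads above each bar. miR-25-3p holds 89.9% to 95.05% in the HFD libraries and 50.9% to 91.3% in the NCD libraries, where NCD replicate 3 rests on 53 reads.

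A pair of libraries had similar totals, NCD replicate 1 with 129152 reads and HFD replicate 3 with 122266. Of these, 85862 and 110906 reads belonged to entries with a miRBase name, NCD replicate 1 being the library with the large unnamed share. There, miR-25-3p had 3964 and 5177 RPM, with 95% intervals that did not overlap, up to 4322 RPM in the former and from 4790 RPM in the latter. Scaled to named reads alone, a choice made after the data were seen, its levels were 5963 and 5708 per 1000000 named reads, with overlapping intervals of 5470 to 6501 and 5281 to 6168, so the direction turned. The other 4 members had lower levels in HFD replicate 3 on both scales. In RPM, miR-92b-3p had 248 and 221, miR-92a-3p had 69.7 and 49.1, miR-363-3p had 61.9 and 0, and miR-19b-3p had 92.9 and 24.5. They rest on 32 and 27, 9 and 6, 8 and 0, and 12 and 3 reads. In RPM the 95% intervals of each pair overlapped, for miR-363-3p only just (from 31.39 and up to 31.42 RPM). Per named read those of miR-363-3p and miR-19b-3p did not overlap and the others did. NCD replicate 1 and HFD replicate 3 are 2 single libraries and not a test of the diets.

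The other products of the clusters were taken from a list of 16 cluster partners and 8 opposite arms, of which 6 and 2 had an entry. By limma, 0 of these 8 were called in either direction, and 0 had an unadjusted p under 0.05. Over all 718 entries, 15.6% were called higher and 1.81% lower, and 22.0% were higher at that unadjusted p. The seed AUUGCAC is also carried by miR-32-5p, from an intron of Tmem245, which had 1, 0 and 0 reads in NCD replicates 1, 2 and 3 and 6, 2 and 2 reads in HFD replicates 1, 2 and 3.

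Within the Mcm7 cluster, the main partners of miR-25-3p had the same order of nid-sEV libraries. That order was also the order of their library totals. It was shared by miRNAs outside the cluster, such as miR-7a-5p, miR-126a-3p and miR-143-3p, but not by miR-375-3p or by miR-25-5p of the same hairpin. The 3p arm of miR-106b had 372, 182.7 and 0 RPM in NCD replicates 1, 2 and 3 and 418, 559 and 376 RPM in HFD replicates 1, 2 and 3. Its groups did not overlap, as was the case with 24.2% of all entries in this direction, but the nearest libraries were 48 reads in NCD replicate 1 and 46 reads in HFD replicate 3. Its log2 fold change was 3.45 with a 95% interval of -1.92 to 8.81 (adjusted p = 0.33 by limma), its size set in part by the 0 in NCD replicate 3. The 5p arm of miR-93, whose seed is that of miR-17, had 194, 137 and 19.8 RPM in NCD replicates 1, 2 and 3 and 171, 190 and 204 RPM in HFD replicates 1, 2 and 3. Its log2 fold change was 1.20 (adjusted p = 0.43 by limma). In every aid-sEV library miR-25-3p exceeded miR-106b-3p by a ratio of 9.11 to 13.8 and miR-93-5p by a ratio of 22.2 to 30.0. The 6 products of this cluster summed to 4615, 1492 and 554 RPM in NCD replicates 1, 2 and 3 and to 4471, 6586 and 5881 RPM in HFD replicates 1, 2 and 3.

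The 5p arm of the miR-25 hairpin was scarce in all libraries. It had 2, 4 and 0 reads in NCD replicates 1, 2 and 3 and 27, 27 and 9 reads in HFD replicates 1, 2 and 3, and the 3p arm exceeded it by ratios of 73.2, 74.4 and 70.3 in the latter. The 3 aid-sEV libraries thus had nearly the same arm ratio. The nid-sEV ratios of 256 and 18.3 in NCD replicates 1 and 2 rest on 2 and 4 reads. For miR-92b, the 5p arm had 14, 10 and 1 reads in HFD replicates 1, 2 and 3, and the 3p arm was the larger in all of them.

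The products of Mir17hg had higher levels in NCD replicates 1 and 2 than in any aid-sEV library. The 5p arm of miR-20a had 434, 182.7 and 0 RPM in NCD replicates 1, 2 and 3, from 56, 12 and 0 reads, and 21.2, 31.2 and 49.1 RPM in HFD replicates 1, 2 and 3, from 11, 11 and 6 reads. The intervals of NCD replicate 1, 334 to 563 RPM, and of NCD replicate 2, 105 to 319 RPM, lay above the levels of all aid-sEV libraries. NCD replicate 3, again at 0 reads, made the groups overlap, and the log2 fold change of -0.39 had a 95% interval of -5.95 to 5.18 (adjusted p = 0.92 by limma). The 5p arm of miR-17, which gives the cluster its name, had 4, 8 and 0 reads in NCD replicates 1, 2 and 3 and 0 reads in each aid-sEV library. Its fitted change had a 95% interval of -8.33 to 0.37 (adjusted p = 0.22 by limma). Of 10 names made only at Mir17hg, 2 had an entry, miR-17-5p and miR-20a-5p. They summed to 465, 305 and 0 RPM in NCD replicates 1, 2 and 3. In HFD replicates 1, 2 and 3 the sum was 21.2, 31.2 and 49.1 RPM, all of it miR-20a-5p. The summed reads of miR-92a-3p and miR-19b-3p, which the chromosome 14 and X clusters both make, gave 163, 168 and 79.2 RPM in NCD replicates 1, 2 and 3 and 80.9, 48.3 and 73.6 RPM in HFD replicates 1, 2 and 3. No test was run on these sums.

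**Figure D4:**
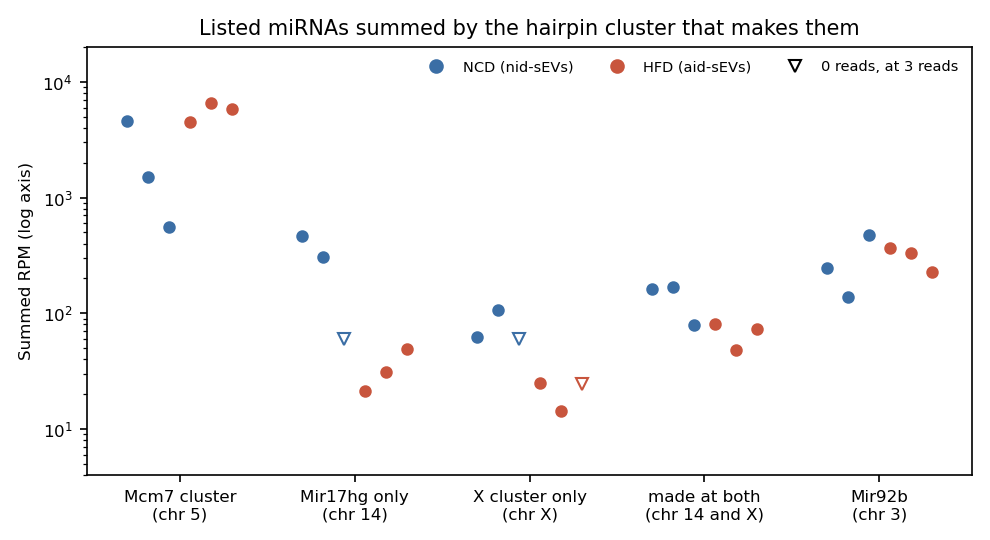
Summed RPM (log axis) of the listed miRNAs of each hairpin cluster, a point per library, NCD in blue and HFD in red, with open triangles for 0 reads drawn at the level of 3 reads. The Mcm7 cluster, which holds miR-25, reaches 4471 to 6586 RPM in the HFD libraries, while the sums of miRNAs made only at Mir17hg, only at the X cluster or at both stay at or under 80.9 RPM there. NCD replicate 3 holds 0 reads of the first 2 of these sums and 79.2 RPM of the last. The sum made only at Mir17hg holds miR-17-5p and miR-20a-5p, and that made only at the X cluster is miR-363-3p alone.

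Likeness to other miRNAs was measured as the root mean square difference between log2(RPM + 1) profiles over the 6 libraries, each centred on its own mean, for the 3 members with at least 3 reads in each library. Among 177 named entries, the closest to miR-25-3p were miR-23b-3p (0.36), miR-191-5p (0.39) and let-7d-5p (0.53), and its cluster partner miR-93-5p was at rank 7 (0.62). The closest to miR-92a-3p were miR-125b-5p (0.16), miR-22-3p (0.17) and miR-27b-3p (0.27). For miR-92b-3p they were miR-433-3p (0.30), miR-341-3p (0.35) and miR-185-5p (0.52). The shared seed did not bring the members together on this measure, as miR-92b-3p and miR-92a-3p were at ranks 83 and 118 from miR-25-3p. The pair miR-92a-3p and miR-92b-3p was nearer, at rank 76 seen from the former and rank 55 from the latter. The ranks take no account of counting error, and miR-92a-3p had only 4 to 9 reads in nid-sEV libraries and 6 in HFD replicate 3. All profiles share the same 6 libraries and their totals.

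Markers of some other cells moved with the groups and, in part, with the members. Red cell miRNAs, of which 5 of 7 had an entry, summed to 12884, 4644 and 4274 RPM in NCD replicates 1, 2 and 3 and to between 728 and 1540 RPM in aid-sEVs, and 1 of them, miR-486a-5p, was called lower. NCD replicate 1, highest in these, also had the highest nid-sEV levels of miR-25-3p, miR-19b-3p and miR-20a-5p. The other members did not follow, as miR-92a-3p and miR-363-3p were highest in NCD replicate 2 and miR-92b-3p in NCD replicate 3. The red cell marker miR-451a was found in all libraries, at 666, 563 and 218 RPM in NCD replicates 1, 2 and 3. In HFD replicates 1, 2 and 3 it had 164, 34.1 and 32.7 RPM, from 85, 12 and 4 reads. Leukocyte miRNAs (6 of 7 with an entry) summed to 1999 to 5756 RPM in nid-sEVs and 670 to 1415 RPM in aid-sEVs, with 1 called lower, and the hepatocyte miRNA miR-122-5p, 1 of 2, ran from 396 to 3000 RPM against 24.5 to 42.6 RPM and was called lower. Mesenchymal (6 of 7), endothelial (2 of 2) and acinar (3 of 3) miRNAs had overlapping ranges, at 5481 to 24498 against 4571 to 11968 RPM, 989 to 3717 against 679 to 1325 RPM and 2533 to 8997 against 698 to 3370 RPM, with 0 calls. The mesenchymal, endothelial and acinar sums were also highest in NCD replicate 1, so a peak there was not particular to red cell miRNAs. The leukocyte sum and miR-122-5p were instead highest in NCD replicate 2. Islet endocrine miRNAs (6 of 6) summed to 79101 to 365002 RPM in nid-sEVs and 217779 to 237690 RPM in aid-sEVs. Of them 3 were called higher, miR-7b-5p, miR-182-5p and miR-183-5p. The others, miR-375-3p, miR-7a-5p and miR-184-3p, were not called, with log2 fold changes of 0.079, -0.14 and -0.64. These calls stand beside 15.6% of all entries called higher and 1.81% called lower. The part of these cells in the levels of the members was not tested.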

How the data were processed

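Small RNA libraries of sEVs from NCD and HFD islets, 3 of each, were grouped by sample title. The authors deposited 1 table with RPM per library (reads scaled to a library of 1000000). The submitters' processing notes name fastp 0.23.0, HISAT2 2.2.1 and GRCm38, and the counting tool and miRNA reference are not given in the sources used here. The table's columns of the authors' own comparison (fold change, mean abundance, p and false discovery rate) were not used.

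Reads were recovered by dividing RPM by the smallest value above 0, and 100% of values came out whole within 0.01 reads. HFD was compared with NCD by limma 3.58.1 (lmFit, eBayes with trend) in R 4.3.3 on log2(RPM + 1) over all 718 entries, with Benjamini-Hochberg adjustment, no filter and no block. The added 1 and libraries at 0 reads can understate or overstate changes of low miRNAs. The edgeR 4.0.16 and DESeq2 1.42.0 tests on recovered reads, other pseudocounts (0.1 and 10), filters, scalings, thinned reads, a replicate block and each library left out were alternatives. The fits were tested on simulated data. Every name of the rule was reported, with its relatives, cluster partners, opposite arms and the 3 miRNAs of nearest profile. Members and lists were chosen with earlier results of these data known. Sequences came from RefSeq (30 of 32 names found) and positions from GENCODE M21.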

Additional observations from a re-analysis of the deposited data

How the results depend on the processing

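Depth limits most of these values, since miR-363-3p and miR-19b-3p never had more than 13 reads in a library and miR-92a-3p had at most 9 in nid-sEVs. The count of members called was 0 in the main comparison and ranged from 0 to 1 when each library was left out, with the 1 being miR-25-3p without NCD replicate 1. It was also 1, again miR-25-3p, at an unadjusted p under 0.05 with a log2 fold change over 1. In the other alternatives run it was 0. Over its alternatives the log2 fold change of miR-25-3p ranged from 1.19 to 2.65 and its adjusted p from 0.020 to 0.40. The log2 fold change of miR-19b-3p, 0.32 in the main comparison, reversed to -0.39 with a pseudocount of 10, -0.76 on thinned reads, -0.85 with edgeR without a filter, -1.29 with DESeq2 and -1.70 without NCD replicate 3. That of miR-92b-3p reversed to -0.21 with edgeR after its filter and -0.22 without NCD replicate 2, and that of miR-363-3p to 0.072 without HFD replicate 3. The difference in the log2 ratio of the family sums, 1.14, ranged from 0.21 to 2.74 when each library was left out and reversed to -0.37 with the mean of log2(RPM + 1) over members in place of sums, which gives low members equal weight. With each library left out, the log2 fold changes ranged from -0.22 to 0.61 for miR-92b-3p, from -3.49 to 0.072 for miR-363-3p and from -1.70 to 1.58 for miR-19b-3p. The log2 ratio of miR-25-3p in HFD replicate 3 over NCD replicate 1, 0.39 by library total, was -0.063 by named reads, a choice added after the data were seen. The cause of the other reversals was not tested.

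Over the whole table, 125 entries were called. The count was 71 with a pseudocount of 10 and 78 with a mean RPM of at least 10. It was 38 among entries found in all libraries, 44 on thinned reads, and 69 and 63 with edgeR with and without its filter. At an unadjusted p under 0.05 with a log2 fold change over 1, it was about 2.0e+02 (157 of them higher). With a library left out it ran from 34 to 176. The lowest of these, 34, was without NCD replicate 2, and 72 were called without NCD replicate 3. The share of calls that were higher in HFD was 89.6%, and it was 56.5% with DESeq2, 69.6% with edgeR after its filter, 60.5% among entries found in all libraries and 97.6% with TMM scaling. It ran from 84.7% to 97.9% with a library left out.

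With the replicate number as a block, 0 entries were called, 187 had an unadjusted p under 0.05, and miR-25-3p had an adjusted p of 0.22. Deviations of same-numbered libraries from their group means correlated at -0.053, 0.058 and -0.051 over entries, and neither the labels nor the study tie these numbers together, so the libraries share only a number.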
